A study of Homo sapiens with 12 samples.

Results

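The genes described here are the amino acid transporters of the SLC1, SLC3, SLC7, SLC36 and SLC38 families, measured by RNA-sequencing in prostate cell lines. Members were the protein-coding genes whose symbol begins with 1 of those family names followed by a number, 38 of the 58302 genes in the deposited table. Of these, 37 are transporters or transporter subunits (7 SLC1, 2 SLC3, 13 SLC7, 4 SLC36 and 11 SLC38 genes). The remaining gene, SLC7A6OS, carries a family name because it lies opposite SLC7A6. It is not a transporter and was kept out of the counts below.

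The study compared a benign prostate cell line with prostate cancer (PCa) lines, with 4 libraries of each of 3 lines. BPH-1 is an established line from benign prostatic epithelium, and DU145 and PC3 are established PCa lines that do not depend on androgen. All libraries were labelled wild type, with no treatment named, and all cells were grown in the same serum-containing DMEM with antibiotics. Each group is a single cell line, so a difference between groups is a difference between lines. The labels do not say whether the 4 libraries of a line came from separate cultures, so p-values measure the spread between these libraries, which may be technical.

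Amino acids are polar and cross the plasma membrane through carriers. SLC7A5 and several relatives are light chains that exchange amino acids and reach the cell surface bound to the heavy chain SLC3A2, whereas SLC1, SLC7A1 and SLC38 proteins work alone and many use the sodium gradient to concentrate their substrates. SLC36 and several SLC38 proteins act at lysosomes, where amino acids are sensed by mTORC1. When amino acids run short, the transcription factor ATF4 switches on a set of transporter and synthesis genes, which makes these families a familiar readout of amino acid supply in cultured cells.

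Depth was 12950757 to 16309825 reads a library, with a median of 15341126, as recovered from the steps between low values. Expression rose with gene GC content in the PCa libraries and fell with it in BPH-1. The slope was between -0.35 and -0.22 log2 units per 10 percentage points of GC in BPH-1. In DU145 it was 1.12 and 1.49 in replicates 1 and 3 but 0.23 and 0.40 in replicates 2 and 4, and in PC3 it was 0.40 to 0.76 in replicates 1 to 3 and 1.15 in replicate 4. Every transporter tested was also fitted with this trend divided out, and the value is given below wherever its call or its direction changed. Keratins KRT8, KRT18 and KRT19 were at 14.7 FPKM or more in every library, but the epithelial markers EPCAM and CDH1 reached at most 0.573 and 0.297 FPKM in DU145, against at least 57.7 and 16.3 in BPH-1. The luminal prostate marker KLK3 had 0 reads in every library. DU145 is known as a line that expresses both EPCAM and CDH1, so these markers go against its label, and DU145 stands below for the libraries labelled so.

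Markers of other cell types also separated the libraries. The leukocyte antigen gene PTPRC was at 1.15 to 1.54 FPKM in BPH-1, at 1.35 and 1.25 in DU145 replicates 1 and 2, and at 0 reads in DU145 replicates 3 and 4 and in PC3. The globin gene HBB was detected in the same 6 libraries at 0.122 to 0.27 FPKM, and the fibroblast marker DCN in DU145 replicates 3 and 4 alone, at 0.373 and 0.214. Over the whole list of 8 such markers, 5 to 6 had more than 3 reads in a BPH-1 library, 4 to 6 in a DU145 library and 3 in a PC3 library, with summed levels of 7.39 to 11.7, 5.76 to 11 and 11.3 to 18.9 FPKM. CD3E, the T cell marker, had 0 reads throughout, and the endothelial marker VWF was at most 0.152 FPKM. The other markers of the list had their highest values in PC3. The endothelial marker PECAM1 was at 1.19 to 2.28 FPKM in PC3 and at most 0.224 elsewhere. The immune marker CD68 was at 6.86 to 13.5 in PC3, 3.43 to 6.57 in BPH-1 and 3.83 to 9.95 in DU145. The fibroblast marker COL1A1 was at 2.99 to 3.84, 1.71 to 3.08 and 0.354 to 0.524. The identity and purity of the libraries, PC3 included, are therefore in doubt, most of all in DU145. The part of other cells in the transporter values was not tested.

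Transporter expression was dominated by a few genes. SLC7A5, which carries large neutral amino acids such as leucine, gave 62.2% ± 4.22 (SD, n = 4) of the summed FPKM of the 37 transporters in BPH-1, 54.9% ± 3.61 (SD, n = 4) in DU145 and 32.0% ± 7.01 (SD, n = 4) in PC3. The sum itself was 438 ± 89.0 FPKM in BPH-1, 786 ± 124 in DU145 and 180 ± 16.5 in PC3 (SD, n = 4 each). At the other end, SLC1A2, SLC7A3, SLC36A3 and SLC38A8 had 0 reads in every library. A further 8 genes, namely SLC1A6, SLC1A7, SLC3A1, SLC7A9, SLC7A10, SLC7A14, SLC36A2 and SLC38A11, never exceeded 3 reads. FPKM is divided by a gene length that adds up all distinct exons. With exons merged instead, SLC7A5 and SLC1A5 still ranked 1 and 2 among the members in each line.

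**Figure D1:**
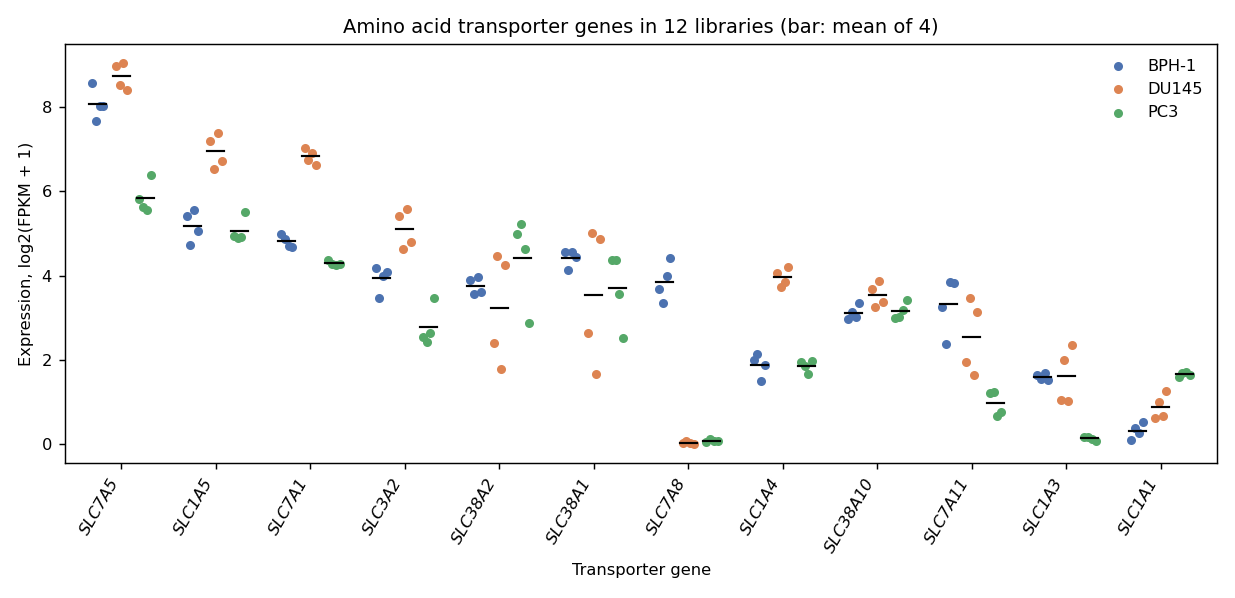
Expression of the 12 most expressed or most changed transporter genes as log2(FPKM + 1) on the vertical axis, with 1 point for each of 4 libraries of BPH-1 (blue), DU145 (orange) and PC3 (green) and a black bar at the mean of the 4 log2 values. SLC7A5, SLC1A5, SLC7A1, SLC3A2 and SLC1A4 have their highest means in DU145, SLC7A8 is near 0 outside BPH-1, and the DU145 points of SLC38A1 and SLC38A2 split into 2 pairs.

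Transporters that differed between PC3 and BPH-1 were mostly lower in PC3, and genes in general were more often lower than higher. Of the 37 transporters, 22 had enough reads to be tested, and 13 differed at a Benjamini-Hochberg adjusted p under 0.05 in limma, 1 of them higher and 12 lower in PC3. The 12 include SLC7A8, SLC38A4, SLC7A7 and SLC1A3, which met the read filter through BPH-1, with at most 20 reads in any PC3 library. The 1 higher gene, SLC1A1, met it through PC3, with at most 29 reads in any BPH-1 library. All of these genes stay in the counts, but no test of them in PC3 against BPH-1 is given below. Over all 16411 genes tested, 67.6% passed this rule, 27.1% higher and 40.4% lower. The rule with an absolute log2 fold change over 1 was passed by 6 transporters, 1 higher and 5 lower, against 27% of all genes (9.41% higher and 17.6% lower). The 4 PC3 and 4 BPH-1 libraries did not overlap for 11 transporters, 1 of them above and 10 below, against 64.4% of all genes (25.8% above and 38.6% below). Counted in either direction, the transporters were thus called about as often as any gene, and these counts do not set them apart. By direction, 1 of the 22 was higher, against 27.1% of all genes, and 12 were lower, against 40.4%. The median log2 fold change was -0.47 over the transporters and -0.13 over all genes, and with the GC trend divided out these became -0.10 and -0.01. With FPKM rescaled to the same sum in each library the median over all genes was -0.28, and the share of calls that were higher moved from 40.2% to 30.2%. With the GC trend divided out, 13 transporters passed, 4 higher and 9 lower, 11 of the 13 original calls kept their direction, and 9 of those 11 also passed. In that fit 10420 of all 16398 genes passed, 48.7% of them higher.

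DU145 was compared with BPH-1 in the same way. Of 23 transporters tested against BPH-1, 12 passed in limma, 8 higher and 4 lower. The 12 include SLC38A3, SLC38A5 and SLC1A1, which met the read filter through DU145, and SLC38A4 and SLC7A8, which met it through BPH-1. SLC1A1 had at most 29 reads in any library of the lower line and the others at most 13. No test of these genes in DU145 against BPH-1 is given below. Over all 17017 genes tested 62.7% passed, 30.3% higher and 32.4% lower. With a log2 fold change over 1 there were 5, 4 higher and 1 lower, against 28.8% of all genes (11.5% higher and 17.3% lower). The libraries did not overlap for 11 transporters, 7 above and 4 below, against 59.5% of all genes (28.8% above and 30.6% below). Counted in either direction, the transporters were called no more often than genes in general as deposited, and these counts do not set them apart. The median was 0.01 over the transporters and -0.03 over all genes, and rescaling to the same sum moved the latter to -0.16 and the share of calls that were higher from 48.4% to 38.6%. With the GC trend divided out, the medians were 0.37 over the transporters and 0.03 over all genes, and 18 transporters passed, 13 higher and 5 lower. In that fit 10610 of all 17003 genes passed, 52.0% of them higher. Without DU145 replicates 1 and 2, which held PTPRC reads, 11 transporters passed, against 9814 of all 17875 genes. Without replicates 3 and 4, 10 transporters passed, against 9494 of 17835 genes. This comparison shares its BPH-1 libraries with the one above.

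The PCa lines were also compared directly. Of 21 transporters tested, 10 differed between PC3 and DU145 in limma, 1 higher and 9 lower in PC3. The 9 include SLC38A3 and SLC38A5, with at most 6 reads in any PC3 library, and SLC1A3, with at most 20. SLC38A3, SLC38A5 and SLC1A3 met the read filter through DU145, and no test of them in PC3 against DU145 is given below. Over all 16422 genes 48.3% passed, 20% higher and 28.4% lower. With a log2 fold change over 1, 7 transporters passed and all 7 were lower in PC3, against 19.3% of all genes (8.21% higher and 11.1% lower). The libraries did not overlap for 10 transporters, 1 above and 9 below, against 46.5% of all genes (19.1% above and 27.5% below). The median was -0.27 over the transporters and -0.05 over all genes. All 10 calls kept their direction and remained past the threshold with the GC trend divided out, when 15 transporters passed. In that fit 9643 of all 16409 genes passed.

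**Figure D2:**
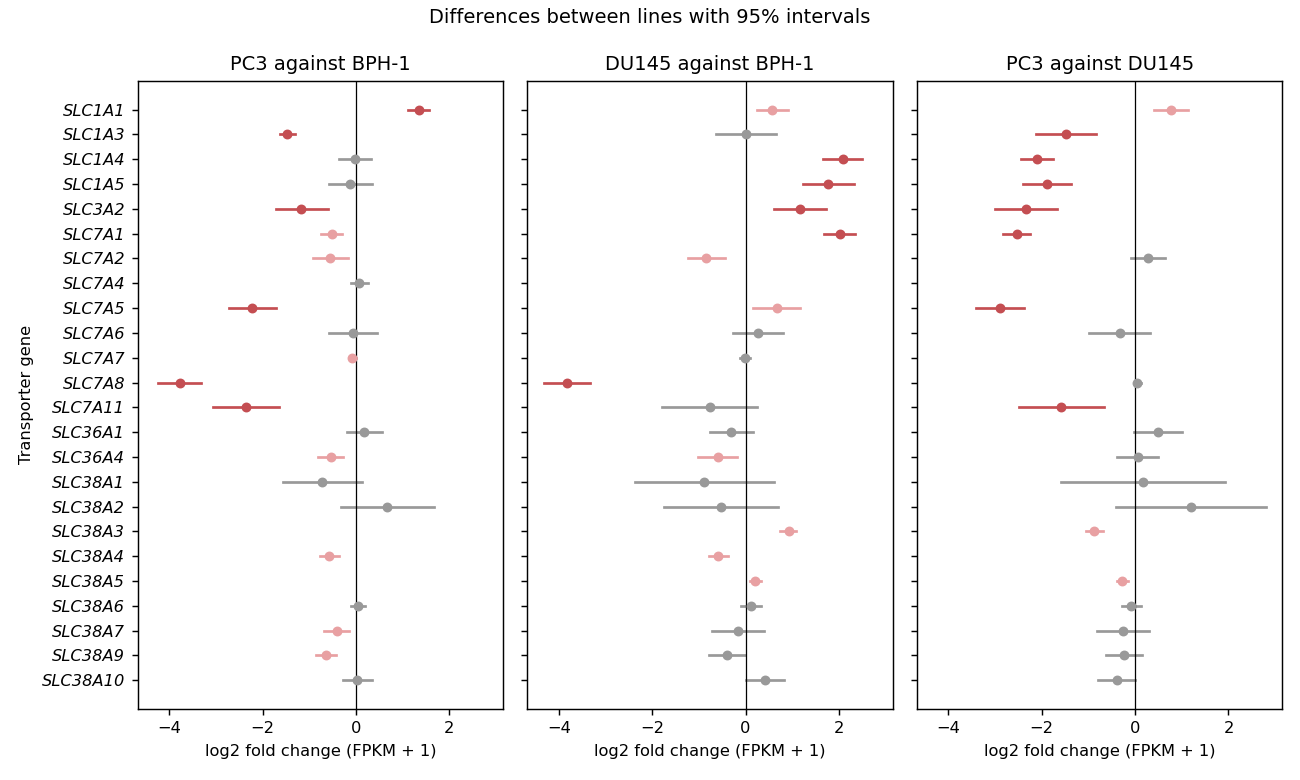
Log2 fold change of FPKM + 1 for each transporter tested, in 3 panels (PC3 or DU145 against BPH-1, then PC3 against DU145), with its 95% interval from limma as a horizontal line. Dark red marks an adjusted p under 0.05 with an absolute log2 fold change over 1, pale red an adjusted p under 0.05 alone, and grey the rest. Of the dark red genes, 1 lies right of 0 and 5 left in the first panel, 4 right and 1 left in the second, and 7 left in the third. Genes that met the read filter through their higher line are drawn too, but their intervals and colours are not read as tests. Among the dark red genes these are SLC7A8 in both comparisons with BPH-1, SLC1A1 in PC3 against BPH-1, and SLC1A3 in both comparisons of PC3. The others are SLC38A3, SLC38A4, SLC38A5 and SLC7A7, and SLC1A1 in DU145 against BPH-1.

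The heavy chain SLC3A2, also called CD98hc or 4F2hc, was highest in DU145 and lowest in PC3. Its FPKM in replicates 1 to 4 was 17.2, 10.1, 15 and 16.1 in BPH-1, 41.4, 23.9, 46.8 and 26.7 in DU145, and 4.87, 4.35, 5.21 and 10.1 in PC3. The DU145 libraries all lay above the rest, while PC3 replicate 4 met the lowest BPH-1 library. SLC3A2 was 2.38-fold higher in DU145 than in BPH-1 by mean FPKM (log2 fold change 1.17 ± 0.25 SE, adjusted p = 0.00256, limma) and 2.37-fold lower in PC3 than in BPH-1 (-1.17 ± 0.25 SE, adjusted p = 0.00227, limma).

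SLC7A5, or LAT1, is the main light chain of SLC3A2 in proliferating cells. It stood at 378, 202, 259 and 259 FPKM in BPH-1, at 505, 366, 529 and 340 in DU145, and at 55.7, 48.7, 45.9 and 82.8 in PC3. No PC3 library came near the other lines, whereas the ranges of DU145 and BPH-1 overlapped. PC3 was 4.72-fold below BPH-1 (-2.22 ± 0.23 SE, adjusted p = 2.34e-05, limma) and 7.47-fold below DU145 (-2.89 ± 0.23 SE, adjusted p = 1.04e-05, limma). The rise in DU145 over BPH-1 was smaller, 1.58-fold (0.67 ± 0.22 SE, adjusted p = 0.0241, limma). That rise did not hold with the GC trend divided out (0.12, adjusted p = 0.655, limma), with FPKM rescaled to the same sum (0.42, adjusted p = 0.125), with voom on recovered reads (0.65, adjusted p = 0.0557) or without DU145 replicate 1 or 3 or BPH-1 replicate 2, 3 or 4 (0.54 to 0.66, adjusted p from 0.0564 to 0.0712). The processed copies SLC7A5P1 and SLC7A5P2 held 7 to 48 and 8 to 88 reads a library, against 3301 to 42431 for SLC7A5, and reads of near-identical sequence could have been split among them.

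SLC7A8, or LAT2, pairs with the same heavy chain and takes a broader set of neutral amino acids. It was at 11.8, 9.12, 14.9 and 20.4 FPKM in BPH-1, at 0.0158, 0.0509, 0.0207 and 0 in DU145, and at 0.0345, 0.0838, 0.0506 and 0.0591 in PC3. Reads numbered 2182 to 4999 in a BPH-1 library but at most 18 in any library of the PCa lines. Mean FPKM was 247-fold lower in PC3 than in BPH-1 (-3.78 on the log2(FPKM + 1) scale, 95% counting interval of the fold 186 to 334). In DU145 it was 645-fold lower (-3.83). SLC7A8 met the read filter through its BPH-1 libraries, where it is high, so no test against BPH-1 is given. The DU145 mean rests on 4, 13, 5 and 0 reads, which gives the fold a 95% counting interval from 407 to 984, and without DU145 replicate 2 it was 1158-fold. PC3 and DU145 did not differ past the threshold (0.05, 95% interval -0.03 to 0.12). Every BPH-1 library thus held both SLC7A5 and SLC7A8 at over 1 FPKM, and the DU145 and PC3 libraries held SLC7A5 but not SLC7A8 above that level.

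SLC7A11, or xCT, is the light chain that imports cystine for glutathione synthesis in exchange for glutamate. Its FPKM was 8.49, 4.21, 13.3 and 13.1 in BPH-1, 2.87, 9.99, 2.1 and 7.81 in DU145, and 1.33, 1.34, 0.577 and 0.704 in PC3. PC3 lay below every other library, and in DU145 replicates 2 and 4 were high and replicates 1 and 3 low. PC3 was 9.89-fold lower than BPH-1 (-2.35 ± 0.31 SE, adjusted p = 0.000129, limma) and 5.76-fold lower than DU145 (-1.58 ± 0.40 SE, adjusted p = 0.00981, limma). SLC7A11 has a low GC content of 35.9%, and dividing out the GC trend left -0.51 against BPH-1 (adjusted p = 0.0785, limma) but -1.87 against DU145. DU145 against BPH-1 gave -0.77 (adjusted p = 0.162, limma) as deposited and 1.36 with the trend divided out (adjusted p = 0.00103, limma), so its direction depended on the processing. The antisense gene SLC7A11-AS1, which shares 865 exon bases, had at most 7 reads.

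Other light chains were low. SLC7A6, or y+LAT2, was between 1.43 and 4.46 FPKM with no difference past the threshold, and 44.4% of its exon bases overlap SLC7A6OS on the other strand. Whether strand was used in counting is not given in the sources used here, so reads of this pair cannot be told apart. SLC7A6OS itself was at 2.53 to 3.40 FPKM in BPH-1, 3.91 to 5.08 in DU145 and 1.93 to 4.16 in PC3, and its call in DU145 over BPH-1 (0.45 ± 0.15 SE, adjusted p = 0.0259, limma) was lost without DU145 replicate 1 or BPH-1 replicate 1 or 4 (adjusted p from 0.0706 to 0.0813). SLC7A7, or y+LAT1, was at 0.056 to 0.118 FPKM in BPH-1, 0.108 and 0.112 in DU145 replicates 1 and 2, 0.036 and 0 in replicates 3 and 4, and at most 0.0245 in PC3. These are also the libraries with and without PTPRC reads, and the part of those reads in SLC7A7 was not tested. SLC7A7 met the read filter in PC3 against BPH-1 through BPH-1, with 11 to 23 reads there and 2 to 4 in PC3. No test of it is therefore given. The call counted above (-0.08) was lost on leaving out any of 5 single libraries, PC3 replicate 1, 2 or 3 or BPH-1 replicate 1 or 3. SLC7A13, a kidney cystine carrier, had 0 reads in BPH-1 and 3 to 5 in each PC3 library, which places it at least 1.44-fold higher in PC3 against a floor of 3 reads a library.

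Among cationic amino acid transporters, which bring in arginine and lysine, SLC7A1 was the main gene. Its FPKM was 30.8, 28.2, 25.1 and 24.7 in BPH-1, 129, 107, 120 and 98.0 in DU145, and 19.7, 18.5, 18 and 18.3 in PC3. The lines did not overlap. SLC7A1 was 4.17-fold higher in DU145 than in BPH-1 (2.02 ± 0.15 SE, adjusted p = 3.28e-06, limma) and 1.46-fold lower in PC3 (-0.52 ± 0.10 SE, adjusted p = 0.00142, limma). PC3 was 6.08-fold below DU145 (-2.53 ± 0.12 SE, adjusted p = 7.95e-07, limma).

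SLC7A2, an inducible arginine carrier, was low and had its highest values in BPH-1. It was at 0.772 to 1.87 FPKM in BPH-1, 0.059 to 0.569 in DU145 and 0.238 to 0.823 in PC3, and it fell in DU145 (-0.84 ± 0.17 SE, adjusted p = 0.00208, limma) and in PC3 (-0.56 ± 0.17 SE, adjusted p = 0.0141, limma). With the GC trend divided out the values were -0.37 and -0.02, and the latter did not pass (adjusted p = 0.899, limma), while PC3 against DU145 went from 0.28 (adjusted p = 0.184, limma) to 0.35 (adjusted p = 0.0238, limma). SLC7A4, whose substrate is not settled, had 0 reads in all 4 DU145 libraries, 3, 11, 0 and 18 in BPH-1 and 7 to 12 in PC3. BPH-1 replicate 3 thus met DU145, whereas PC3 lay above it. Against the same floor, SLC7A4 was at least 3.62-fold higher in PC3 than in DU145. Mean FPKM in BPH-1 was at least 2.63-fold higher than in DU145, a bound that was 1.55 without BPH-1 replicate 4.

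The neutral SLC1 carriers SLC1A4 and SLC1A5, which exchange serine, alanine, cysteine and, for SLC1A5, glutamine, were raised in DU145. SLC1A5, or ASCT2, was at 41.7, 25.6, 45.9 and 32.3 FPKM in BPH-1, at 146, 92.3, 167 and 104 in DU145, and at 29.9, 28.8, 29 and 44.9 in PC3. The DU145 libraries lay above all others, and PC3 lay within the range of BPH-1. DU145 was 3.50-fold above BPH-1 (1.77 ± 0.24 SE, adjusted p = 0.000158, limma), and PC3 did not differ from BPH-1 past the threshold (-0.12, 95% interval -0.58 to 0.35, adjusted p = 0.628). An antisense gene covers 23.4% of SLC1A5 exon bases but had at most 75 reads.

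SLC1A4, or ASCT1, was at 2.98, 3.43, 1.84 and 2.66 FPKM in BPH-1, at 15.6, 12.3, 13.3 and 17.5 in DU145, and at 2.88, 2.59, 2.16 and 2.92 in PC3. BPH-1 and PC3 shared a range that no DU145 library approached. It was 5.38-fold higher in DU145 than in BPH-1 (2.08 ± 0.19 SE, adjusted p = 1.1e-05, limma) and did not differ between PC3 and BPH-1 past the threshold (-0.02, 95% interval -0.37 to 0.33). With the GC trend divided out, the rises in DU145 were 1.83 for SLC1A4, 1.24 for SLC1A5, 1.58 for SLC7A1 and 0.68 for SLC3A2, and all 4 kept their calls.

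Promoters were searched on both strands for the CHOP-ATF4 amino acid response element, TGATGNAAN, and for the antioxidant response element core, TGACNNNGC. RefSeq start sites (GRCh38.p14) gave 49 windows of 300 bases, most of each lying before the start, for 30 of the 38 members. The rest, SLC1A2, SLC3A1, SLC7A2, SLC7A3, SLC7A4, SLC7A11, SLC7A13 and SLC38A3, had no window and were not searched. The response element was in 6 of the 49 windows (12.2%) of 6 genes, namely SLC1A3, SLC1A4, SLC1A5, SLC3A2, SLC7A1 and SLC38A1, against 3.61% of all 35116 windows. The antioxidant core was in 7 windows (14.3%) of 7 genes, against 13.35% of all windows. A match describes letters only, and the part of ATF4 in the differences between lines was not tested. SLC1A3 and SLC38A1 hold the element without a call in DU145 against BPH-1 as deposited. The windows of the 5 genes called higher in DU145 with the highest levels follow, read 5′ to 3′ along the gene, with matches in capitals. Where a gene had several windows, the window with the response element is shown. For SLC1A4, SLC1A5 and SLC3A2 that window lies inside the annotated gene, and the window at the start of the annotated gene has no match. In SLC1A4 and SLC3A2 the response element reads on the opposite strand, so its capitals end in CATCA. Among the windows shown, those of SLC3A2 and SLC7A1 hold both motifs, and the only capitals in SLC7A5 are the antioxidant core. SLC1A3 and SLC1A5 also have both motifs, but in separate windows.
SLC1A4, chr2:64989149-64989448, plus strand: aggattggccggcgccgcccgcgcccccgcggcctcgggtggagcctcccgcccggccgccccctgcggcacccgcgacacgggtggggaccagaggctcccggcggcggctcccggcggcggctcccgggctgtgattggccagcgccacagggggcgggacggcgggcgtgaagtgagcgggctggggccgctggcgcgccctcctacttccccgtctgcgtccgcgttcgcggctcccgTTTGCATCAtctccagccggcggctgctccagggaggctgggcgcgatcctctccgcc
SLC1A5, chr19:46784765-46785064, minus strand: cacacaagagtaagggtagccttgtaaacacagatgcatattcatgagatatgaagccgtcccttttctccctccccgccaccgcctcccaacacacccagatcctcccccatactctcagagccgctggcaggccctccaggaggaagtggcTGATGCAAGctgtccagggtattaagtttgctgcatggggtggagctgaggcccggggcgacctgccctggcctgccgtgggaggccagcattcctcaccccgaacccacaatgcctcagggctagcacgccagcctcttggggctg
SLC3A2, chr11:62881449-62881748, plus strand: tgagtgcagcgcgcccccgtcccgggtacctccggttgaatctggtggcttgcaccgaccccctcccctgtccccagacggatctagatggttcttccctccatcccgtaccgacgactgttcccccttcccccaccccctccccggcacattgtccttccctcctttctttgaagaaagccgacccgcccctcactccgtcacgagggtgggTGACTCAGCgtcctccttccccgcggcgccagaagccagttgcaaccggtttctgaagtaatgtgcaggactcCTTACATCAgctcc
SLC7A1, chr13:29595639-29595938, minus strand: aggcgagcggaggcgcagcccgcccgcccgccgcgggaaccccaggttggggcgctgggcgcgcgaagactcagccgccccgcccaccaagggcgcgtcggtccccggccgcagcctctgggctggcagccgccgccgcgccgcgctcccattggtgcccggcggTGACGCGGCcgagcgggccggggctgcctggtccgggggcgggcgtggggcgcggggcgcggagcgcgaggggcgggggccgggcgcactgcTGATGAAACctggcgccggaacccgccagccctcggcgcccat
SLC7A5, chr16:87869458-87869757, minus strand: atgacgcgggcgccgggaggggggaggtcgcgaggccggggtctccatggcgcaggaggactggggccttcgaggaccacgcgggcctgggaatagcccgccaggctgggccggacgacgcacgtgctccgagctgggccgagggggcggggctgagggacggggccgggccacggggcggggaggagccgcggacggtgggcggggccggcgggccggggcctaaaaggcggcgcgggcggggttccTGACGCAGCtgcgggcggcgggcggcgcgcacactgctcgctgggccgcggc

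The SLC1 glutamate and aspartate carriers moved in opposite directions in PC3. SLC1A1, or EAAT3, was at 0.0754, 0.305, 0.195 and 0.432 FPKM in BPH-1, 0.546, 0.999, 0.573 and 1.40 in DU145, and 2.01, 2.24, 2.26 and 2.1 in PC3. The 3 lines did not overlap, with PC3 highest. SLC1A1 was the only transporter counted as higher in PC3 than in BPH-1 (8.55-fold by mean FPKM, log2 fold change 1.34). It was also higher in DU145 than in BPH-1 (0.57). Its reads numbered 5, 20, 13 and 29 in BPH-1, 38 to 81 in a DU145 library and 112 to 135 in a PC3 library. SLC1A1 thus met the read filter through PC3 or DU145, where it is higher, so no test against BPH-1 is given. SLC1A3, or EAAT1, was at 2.14, 1.91, 2.21 and 1.86 FPKM in BPH-1, 1.08, 3, 1.03 and 4.08 in DU145, and 0.129, 0.116, 0.0905 and 0.0517 in PC3. Mean FPKM in PC3 was 21.0-fold below BPH-1 and 23.7-fold below DU145 (log2 fold change -1.47 in each). PC3 held 20, 19, 15 and 8 reads, against 347 to 409 in a BPH-1 library and 189 to 653 in a DU145 library. SLC1A3 thus met the read filter through BPH-1 or DU145, where it is higher, so no test of PC3 is given. DU145 against BPH-1 was 0.01 (adjusted p = 0.986, limma), with replicates 2 and 4 above the BPH-1 range and replicates 1 and 3 below it, and was 0.44 with the GC trend divided out (adjusted p = 0.0397, limma).

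The sodium-coupled glutamine carriers SLC38A1 and SLC38A2 belong to the most expressed members and varied widely within DU145 and PC3, though not within BPH-1. SLC38A1, or SNAT1, was at 22.5, 16.6, 22.7 and 20.9 FPKM in BPH-1, 5.17, 31.5, 2.17 and 28.2 in DU145, and 19.8, 19.8, 10.8 and 4.72 in PC3. SLC38A2, or SNAT2, an amino acid starvation gene, was at 13.8, 10.8, 14.6 and 11.3 FPKM in BPH-1, 4.26, 21.2, 2.43 and 18.2 in DU145, and 30.6, 36.4, 23.6 and 6.35 in PC3. In both genes DU145 replicates 1 and 3 and PC3 replicate 4 were low, and these are the libraries with the steepest GC slopes. Neither gene differed past the threshold in any comparison as deposited.

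For SLC38A2 the outcome depended on those libraries. PC3 against BPH-1 gave 0.67 (adjusted p = 0.205, limma), but 1.19 without PC3 replicate 4 (adjusted p = 0.000333, limma) and 2.43 with the GC trend divided out (adjusted p = 2.26e-05, limma). PC3 against DU145 did not pass as deposited (adjusted p = 0.194, limma) and was 1.14 with the trend divided out (adjusted p = 0.0158, limma). DU145 against BPH-1 gave -0.53 (adjusted p = 0.416, limma) and 1.29 with the trend divided out (adjusted p = 0.00163, limma). Leaving out DU145 replicates 1 and 3, or 2 and 4, gave 0.61 and -1.67, whose directions follow from the choice, since the pairs that differ in GC slope are also the low and the high libraries of this gene. SLC38A1 in DU145 gave -0.88 (adjusted p = 0.27, limma), with 0.52 and -2.28 without the same pairs. With the trend divided out, SLC38A1 was at 0.06 in DU145 and 0.15 in PC3 against BPH-1, from -0.88 and -0.72 as deposited, with no call in either fit.

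**Figure D3:**
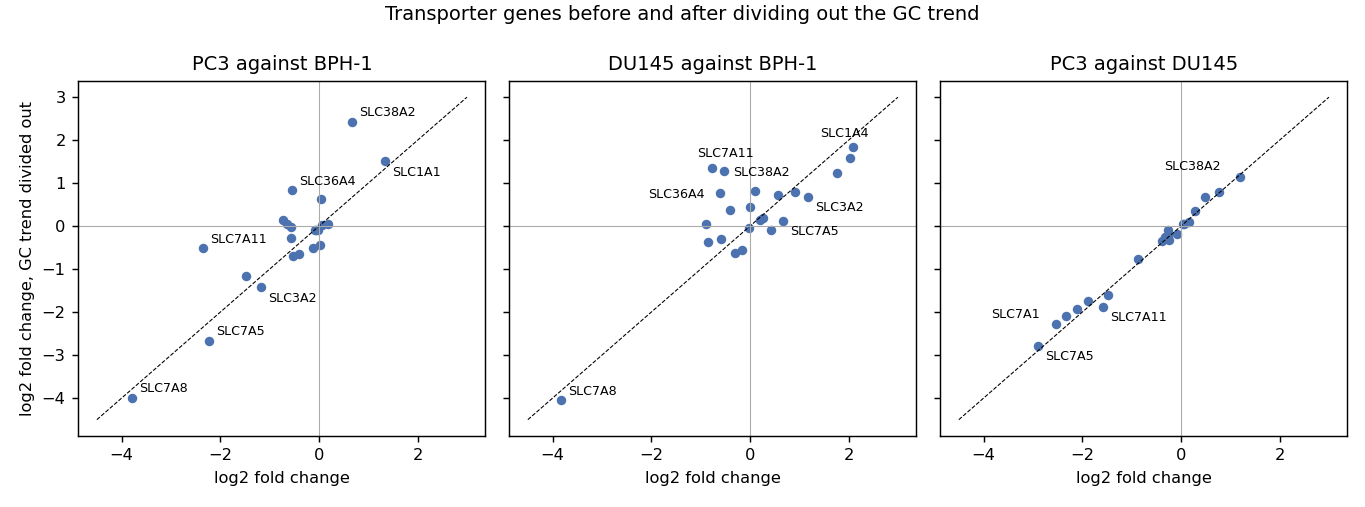
Log2 fold change of each transporter tested as deposited (horizontal axis) and with each library's trend with GC content divided out (vertical axis), in the 3 comparisons, 1 point a gene, with a dashed line of equal values. SLC7A11, SLC36A4 and SLC38A2 lie above the line in both comparisons with BPH-1, whereas in PC3 against DU145 the points lie near it.

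Of the other SLC38 carriers, SLC38A3 and SLC38A4 marked single lines at low levels. SLC38A3, or SNAT3, a glutamine carrier of liver and kidney, held 57 to 89 reads in each DU145 library (0.680 to 1.12 FPKM), 2 in all of BPH-1 and 2 to 4 in each PC3 library. The ratio of DU145 to BPH-1 was 144, with a 95% counting interval from 39.5 to 1200. It had enough reads to be tested through the DU145 libraries alone, so no test is given. SLC38A4, or SNAT4, was at 26 to 71 reads in BPH-1 (0.299 to 0.827 FPKM), at 0 in DU145 and at 1 read in all of PC3. It was thus at least 14.3-fold higher in BPH-1 than in DU145, and the ratio to PC3 was 151 (95% counting interval 26.7 to 5980). Both genes were below the expression limit set for describing single libraries and were picked out after their values were seen. SLC38A5, or SNAT5, was at 0.157 to 0.312 FPKM in DU145, 0.0293 to 0.126 in BPH-1 and at most 0.0651 in PC3. Reads numbered 14 to 32 in a DU145 library but 3 to 13 in a BPH-1 library. SLC38A5 too met the read filter through DU145, so no test is given.

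The remaining members include those of lysosomes. SLC38A10, whose role is less clear, was at 6.81, 7.79, 7.10 and 9.27 FPKM in BPH-1, 11.8, 8.60, 13.6 and 9.30 in DU145, and 6.97, 7.10, 8.01 and 9.63 in PC3. The lines overlapped and no comparison passed as deposited. After the GC trend was divided out, SLC38A10 was lower in PC3 than in BPH-1 (-0.44, adjusted p = 0.00263, limma) and than in DU145 (-0.34, adjusted p = 0.00888, limma), and DU145 against BPH-1 moved from 0.42 to -0.10 with no call in either. SLC38A9, the lysosomal arginine sensor of mTORC1, was at 1.36 to 1.67 FPKM in BPH-1, 0.410 to 1.40 in DU145 and 0.365 to 0.746 in PC3. It fell in PC3 as deposited (-0.64 ± 0.10 SE, adjusted p = 0.000318, limma) and was at 0.04 with the GC trend divided out (adjusted p = 0.63, limma), when it passed in DU145 against BPH-1 (0.37, adjusted p = 0.00397, limma) and in PC3 against DU145 (-0.33, adjusted p = 0.00901, limma). SLC38A7, a lysosomal glutamine exporter, fell in PC3 (-0.41 ± 0.12 SE, adjusted p = 0.0118, limma), a call lost in 1 fit over all 3 lines (adjusted p = 0.122), and with the GC trend divided out it was also lower in DU145 (-0.55, adjusted p = 0.0317, limma). SLC38A6 stayed between 0.443 and 0.813 FPKM with no call as deposited, though with the GC trend divided out it was 0.64 in PC3 (adjusted p = 0.00119, limma) and 0.82 in DU145 (adjusted p = 0.00262, limma) against BPH-1.

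Of the 4 proton-coupled SLC36 genes, 2 were expressed. SLC36A1, or PAT1, which exports small amino acids from lysosomes, was between 1.86 and 6.51 FPKM over the 12 libraries with no call as deposited. Once the GC trend was divided out, DU145 against BPH-1 moved from -0.31 to -0.63 (adjusted p = 0.018, limma) and PC3 against DU145 from 0.49 to 0.68 (adjusted p = 0.0187, limma). SLC36A4, or PAT4, was at 1.98 to 2.34 FPKM in BPH-1, 0.600 to 1.73 in DU145 and 0.850 to 1.54 in PC3. It fell in PC3 (-0.54 ± 0.12 SE, adjusted p = 0.00264, limma) and in DU145 (-0.60 ± 0.19 SE, adjusted p = 0.0176, limma), and the latter did not hold without DU145 replicate 1 (-0.52, adjusted p = 0.0569). SLC36A4 has a GC content of 36.4%, and with the GC trend divided out both values changed sign, to 0.84 in PC3 (adjusted p = 0.000787, limma) and 0.78 in DU145 (adjusted p = 0.000212, limma).

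Genes of the same pathway outside the 5 families were taken from lists. Of 16 amino acid response genes of the ATF4 pathway, all tested, 13 were higher and 1 lower in DU145 than in BPH-1, each of the 13 by a log2 fold change over 1, with a median of 2.18. Over all genes 11.5% were higher by that rule. The largest were CHAC1, which degrades glutathione (3.71 ± 0.30 SE, adjusted p = 5.54e-06, limma), and the asparagine synthetase gene ASNS (3.51 ± 0.37 SE, adjusted p = 2.92e-05, limma), followed by STC2 (2.97) and NUPR1 (2.75). ATF4 itself was at 193 ± 46.2 FPKM in DU145, 47.5 ± 8.61 in BPH-1 and 62.0 ± 5.38 in PC3 (SD, n = 4 each). ASNS was at 69.7 ± 1.90 FPKM in DU145, 6.34 ± 5.50 in BPH-1 and 4.85 ± 0.783 in PC3 (SD, n = 4 each). In PC3 against BPH-1 the same list gave 7 higher and 4 lower (median 0.39), against 27.1% and 40.4% of all genes. In PC3 against DU145 it gave 2 higher and 14 lower (median -2.08), against 20% and 28.4% of all genes. With the GC trend divided out, 14 were higher and 1 lower in DU145 than in BPH-1. In that fit 10610 of all 17003 genes passed, 52.0% of them higher.

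**Figure D4:**
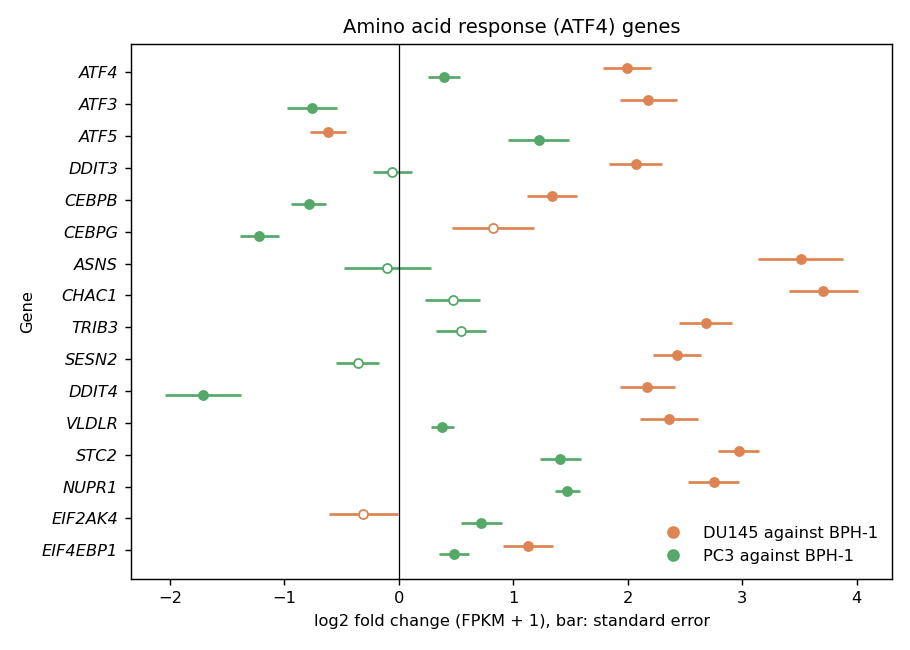
Log2 fold change of FPKM + 1 of the 16 amino acid response genes in DU145 (orange) and PC3 (green) against the same 4 BPH-1 libraries, with the standard error as a horizontal bar. Filled points have an adjusted p under 0.05 in limma, 14 of 16 in DU145 and 11 of 16 in PC3, and 13 of the DU145 points are filled and right of 1.

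Among 19 enzymes of glutamine, glutamate and glutathione metabolism, 18 were tested in DU145 against BPH-1, with 8 higher and 1 lower (median 0.35), against 30.3% and 32.4% of all genes. Dividing out the GC trend gave 11 higher and 1 lower (median 0.80), where 10610 of all 17003 genes passed. They included the serine synthesis gene PSAT1 (4.15 ± 0.22 SE, adjusted p = 4.99e-07, limma), CBS of the transsulfuration pathway (3.56) and the aspartate aminotransferase GOT1 (2.42). In PC3 against BPH-1, 3 were higher and 8 lower of 19 (median -0.25), against 27.1% and 40.4% of all genes. In PC3 against DU145, 1 was higher and 14 lower of 19 (median -0.81), against 20% and 28.4% of all genes.

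Of 17 further amino acid transporters, 10 were tested in DU145 against BPH-1, with 5 higher and 2 lower (median 0.50), against 30.3% and 32.4% of all genes. Dividing out the GC trend left 4 higher and 1 lower (median 0.12), where 10610 of all 17003 genes passed. The glycine carrier SLC6A9 (2.59), the neuronal carrier SLC6A17 (2.29), the leucine carrier SLC43A1 (1.97) and the lysosomal cystine exporter CTNS (1.18) rose by a log2 fold change over 1, though CTNS was at 0.76 with the trend divided out. SLC43A1 rose in PC3 too (1.8 ± 0.14 SE, adjusted p = 3.96e-06, limma). There 5 of 9 tested were higher and 2 lower than in BPH-1 (median 0.47), against 27.1% and 40.4% of all genes. In PC3 against DU145, 1 was higher and 3 lower of 8 tested (median -0.14), against 20% and 28.4% of all genes. The 25 mTORC1 and lysosomal sensing genes, of which 24 were matched by name, showed no common direction. In PC3 against BPH-1, 8 were higher and 8 lower of 23 (median -0.19), against 27.1% and 40.4% of all genes. For DU145 against BPH-1 the counts were 6 and 9 of 24 (median -0.14), against 30.3% and 32.4%. For PC3 against DU145 they were 7 and 4 of 23 (median 0.08), against 20% and 28.4%. SESN2, a leucine sensor that is also an ATF4 target and is counted in both lists, was the largest of them in DU145 (2.43 ± 0.21 SE, adjusted p = 8.54e-06, limma).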

How the data were processed

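Total RNA of 3 cell lines was sequenced, with 4 libraries a line. The submitters' processing notes name CASAVA 1.8, HISAT2 2.1.0, edgeR and GRCh38. The counting program, annotation, strand use and filters are not given in the sources used here. The authors aligned the reads, normalized them by gene length and depth, and deposited 1 table whose values are called FPKM here, from their form, because its header names no unit. With gene length as the sum of distinct GENCODE 29 exons, 92.3% to 93.7% of low values (up to 20 reads) in a library were whole reads within 0.02. The 263 genes without a length were left out.

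Reads served for filters, counting intervals (95%), floors (3 reads a library) and depth, and cover counting error only. limma 3.58.1 in R 4.3.3 (trend, two-sided, Benjamini-Hochberg over all genes tested) was fitted to log2(FPKM + 1) of the 2 lines compared, for genes that reached 10 reads, scaled to the median depth, in 4 or more libraries and 15 in all. The fold changes understate those of low genes. The GC trend was divided out with a spline (5 degrees of freedom) on transcript GC, which also removes real differences that follow GC. The fit was tested on simulated data. Other software was Python 3.11.15, numpy 2.4.6, pandas 2.3.3, scipy 1.17.1 and matplotlib 3.10.9.

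Values in every library are given for transporters with a mean of at least 5 FPKM in a line or past both rules. Genes of the other lists are named, up to 4 a list, where they pass both rules with the largest changes, and ATF4 was named after its values were seen. Values of 1 listed gene are not reported here. The members and lists were chosen with earlier results of these data known. Libraries of a line differed far beyond counting noise (chi-square per gene 17.4 to 215 over 18 pairs) and were all kept as separate. The alternatives were other pseudocounts, filters, scalings, voom on recovered reads, 1 fit over all lines, a replicate block and libraries left out. Leaving out pairs of DU145 libraries was chosen after seeing the data.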

Additional observations from a re-analysis of the deposited data

Results flagged for a closer look

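In 89 sets of 4 libraries of a line with differing values, 12 had 1 library far from the others. In 8 of these the other libraries of the line had 0 reads, so that a single read was enough and the chance rate does not apply. Of the remaining 81 sets, 4 were of this kind, and chance gives about 5% of sets. In PC3 replicate 4, SLC1A5 was at 44.9 FPKM (28.8 to 29.9 in the others), SLC3A2 at 10.1 (4.35 to 5.21) and SLC7A7 at 0.0245 (0.0115 to 0.0123). The same library was lowest for SLC38A11, at 0.00895 (0.0251 to 0.0269), and the only PC3 library with a read of SLC36A2 (0.0125). All 4 of the sets with reads in several libraries are thus from PC3 replicate 4, which also had the steepest GC slope of its line, whose part in these values was not tested. The others rest on 1 or 2 reads against 0 in the rest of the line: SLC1A6 in BPH-1 replicate 2 (0.00593), SLC7A14 in BPH-1 replicate 1 (0.00613), SLC38A3 in BPH-1 replicate 4 (0.0249), SLC1A7 in DU145 replicate 3 (0.00627), SLC7A9 in PC3 replicate 3 (0.019), SLC7A10 in PC3 replicate 1 (0.034) and SLC38A4 in PC3 replicate 2 (0.0131).

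The effects of PC3 and DU145 against BPH-1 differed, by the direct limma comparison of PC3 with DU145 (adjusted p under 0.05 and absolute log2 fold change over 1), for 7 transporters. The differences were -2.89 for SLC7A5, -2.53 for SLC7A1, -2.33 for SLC3A2, -2.10 for SLC1A4, -1.89 for SLC1A5, -1.58 for SLC7A11 and -1.47 for SLC1A3. SLC1A3 met the read filter through DU145, so its difference is listed by the rule and not read as a test.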

How the results depend on the processing

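At a limma adjusted p under 0.05, the number of transporters called ranged over single libraries left out from 12 to 14 in PC3 against BPH-1 (13 with all), from 10 to 14 in DU145 against BPH-1 (12 with all) and from 10 to 12 in PC3 against DU145 (10 with all). With a log2 fold change over 1 the ranges were 6 to 7, 5 to 5 and 7 to 7. Over all genes, 10604 to 11321, 9618 to 11459 and 7019 to 8239 had an adjusted p under 0.05 in these fits. Requiring 10 reads in every library tests fewer genes and drops those near 0 in 1 line. It left 8 transporters in PC3 (against 8414 of 13021 genes) and 7 in DU145 against BPH-1 (7812 of 13322 genes), and 3 in PC3 over a log2 fold change of 1. That last rule was passed by 10 transporters in PC3 and 11 in DU145 against BPH-1 with voom on recovered reads, and by 10 in DU145 with log2(FPKM + 0.1), since a smaller pseudocount gives low genes larger fold changes. It was passed by 10 without DU145 replicates 2 and 4, where the cause was not tested. Shares over all genes by this rule are not given for these fits, so these counts are not read as a result about the transporters. Without replicates 1 and 2, or 3 and 4, 11 and 10 passed the first rule in DU145 against BPH-1. With the replicate block, 12, 12 and 10 transporters passed the first rule and 6, 5 and 7 the second in the 3 comparisons, and SLC7A7 in PC3 lost its call. Over all genes, 10736, 10131 and 6747 then passed the first rule. Deviations of same-numbered libraries correlated between -0.73 and 0.58, so the numbers did not pair the libraries.

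With the GC trend divided out, signs changed in PC3 against BPH-1 for SLC36A4 (0.84), SLC38A10 (-0.44) and SLC38A9 (0.04), and in DU145 against BPH-1 for SLC36A4 (0.78), SLC38A2 (1.29), SLC7A11 (1.36) and SLC38A9 (0.37). Signs also changed, with no call in either fit, for SLC38A1 in PC3 (0.15) and DU145 (0.06) and for SLC38A10 in DU145 (-0.10) against BPH-1. In DU145 against BPH-1 they also changed without DU145 replicates 1 and 3 for SLC38A2 (0.61) and SLC38A1 (0.52), and without replicates 2 and 4 for SLC1A3 (-0.56). Leaving out DU145 replicate 2 brought SLC38A10 (0.52, adjusted p = 0.0304, limma) and SLC38A9 (-0.48, adjusted p = 0.0417) past the threshold in DU145 against BPH-1, and in PC3 against DU145 SLC38A10 (-0.49, adjusted p = 0.0492) and SLC38A7 (-0.50, adjusted p = 0.0366). Leaving out replicate 4 did so for SLC38A9 in DU145 against BPH-1 (-0.52, adjusted p = 0.024). The opposite-strand gene SLC7A6OS passed in PC3 against DU145 (-0.57, adjusted p = 0.0391, limma) but not without PC3 replicate 1, 2 or 4 or DU145 replicate 1, 2 or 4 (adjusted p from 0.0605 to 0.113). Genes under about 3 reads a library could not be compared at this depth.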
